A study of Mus musculus with 16 samples.

Results

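The genes described here are 10 transcripts of macrophages in general, measured in the mammary gland of female mice housed alone or in groups. They were the adaptor Tyrobp, the growth factor receptor Csf1r, the Fc receptors Fcgr3 and Fcgr1, the complement genes C1qa, C1qb and C1qc, the lysosomal genes Cd68 and Ctss, and the lysozyme gene Lyz2. They were chosen by symbol, as the genes whose array probe sets carried 1 of these symbols and no other. The list was drawn up with earlier results of these data known, so its counts beside those of all genes are descriptions. The listed genes made up 10 of 18193 genes tested and were read by 15 of 45101 probe sets, a probe set being the group of short oligonucleotides that reports on a transcript.

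All mice were FVB/N females homozygous for the SV40 large Tag gene under a C3(1) fragment of a rat prostatic steroid binding protein promoter (such mice develop mammary tumours). They were weaned at 21 days, all took an open-field test at 3.5 weeks by which the housing groups were balanced for behaviour, and then lived singly (isolated) or with other females (grouped). The labels give no number of mice per grouped cage, and the study compared thoracic mammary glands of the 2 housing conditions at 15 and at 20 weeks of age. Each of the 4 groups (grouped 15 weeks, isolated 15 weeks, grouped 20 weeks and isolated 20 weeks) had 4 arrays. Every mouse was killed in estrus, 6 hours into the dark phase, per the labels. The labels do not state that replicates were separate mice, so the p-values measure only the spread between these samples. There were no mice without the transgene, so each group is a gland at risk of or bearing tumours.

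Macrophages are phagocytes of the innate immune system that reside in nearly every tissue. They depend on signals through the CSF1 receptor, carry Fc receptors that bind antibody, make the C1q subunits that start the classical complement cascade, and digest what they take up in lysosomes. In the mammary gland they lie around ducts and in the fat pad, take part in branching and in the clearance of dying cells, and accumulate in tumours. In a whole gland, fewer cells of a type and less RNA per cell cannot be told apart.

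The 10 genes lay on the same side of 0 at each age, and on opposite sides at the 2 ages. At 15 weeks all 10 were lower in isolated than in grouped mice, with a median log2 difference of -0.36, and at 20 weeks all 10 were higher, with a median of 0.59. No member passed the test over all genes at either age or for the difference between ages. At 20 weeks the groups overlapped in every member, because grouped replicate 3 carried macrophage transcripts at the level of most isolated arrays, and isolated replicate 1 was the lowest isolated array in all 10.

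The values are log2 expression levels, so that a difference of 1 is a doubling. Each was tested with limma over 18193 genes, with 1 probe set per gene, and a gene was called when its p-value after Benjamini-Hochberg adjustment was under 0.05. Levels are compared only within a probe set, since each probe set has a brightness of its own. A rough check of detection, since brightness also depends on the probes, was the rank among all 45101 probe sets, not among the genes tested. By it 9 of the 10 members ranked at or above the 70.6th percentile on every array. The exception was Fcgr1, which ranked between the 51.6th and the 77.0th percentile. The genes are not private to macrophages: monocytes and dendritic cells express many of them, neutrophils Lyz2 and Tyrobp, and NK cells Fcgr3 and Tyrobp.

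**Figure D1:**
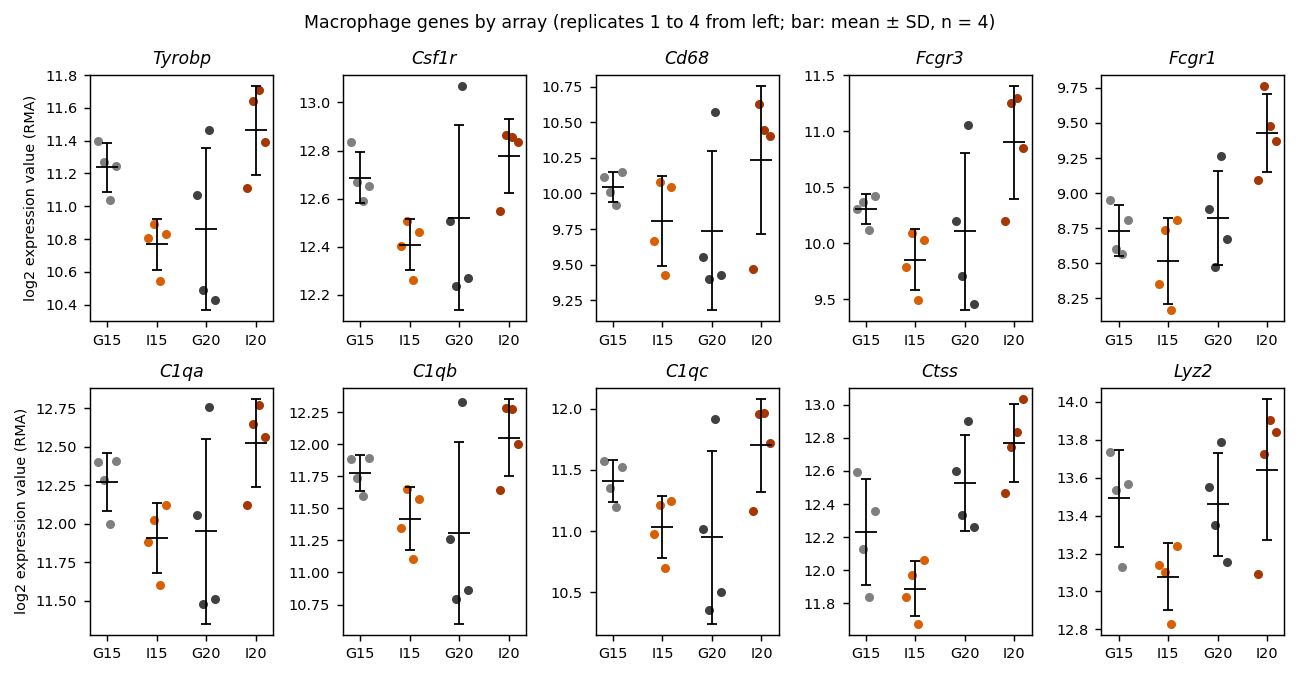
Log2 expression value of each of the 10 macrophage genes on all 16 arrays, with a panel per gene and an axis of its own. G15 and I15 are grouped and isolated mice of 15 weeks, G20 and I20 those of 20 weeks, points run from replicate 1 on the left to replicate 4 on the right, and bars show the mean ± SD (n = 4). In each panel isolated replicate 3 is the lowest array of 15 weeks, and at 20 weeks grouped replicate 3 is the highest grouped array and isolated replicate 1 the lowest isolated one.

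At 15 weeks the receptors and their adaptor were lower in isolated mice by 1.16-fold to 1.38-fold. Tyrobp, which encodes DAP12, the adaptor that passes on signals from many activating receptors of myeloid cells, was at 11.40, 11.27, 11.04 and 11.24 in grouped replicates 1 to 4 and at 10.81, 10.89, 10.54 and 10.83 in isolated replicates 1 to 4. The groups did not overlap, all isolated values being lower. The log2 difference was -0.47 (SE 0.10), from 11.24 ± 0.15 (SD, n = 4) to 10.77 ± 0.16, and the adjusted p was 0.205. It was the largest difference among the 10 members at this age, and lay at the 0.462nd percentile of the differences of all genes.

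Csf1r, the receptor for CSF1 and IL-34 on which most tissue macrophages depend, was at 12.84, 12.67, 12.59 and 12.65 in grouped and at 12.40, 12.50, 12.26 and 12.46 in isolated arrays. Here too the groups were apart. The log2 difference was -0.28 (SE 0.08, adjusted p = 0.342). Fcgr3, a low-affinity activating receptor for IgG, was at 10.30, 10.37, 10.11 and 10.42 in grouped and at 9.79, 10.09, 9.49 and 10.03 in isolated arrays. Again every isolated array lay below every grouped one, and the difference was -0.45 (SE 0.13, adjusted p = 0.330). Fcgr1, the high-affinity IgG receptor, was at 8.95, 8.61, 8.57 and 8.81 in grouped and at 8.35, 8.74, 8.17 and 8.81 in isolated arrays. Its groups overlapped, with isolated replicates 2 and 4 among the grouped values, and its difference of -0.22 (SE 0.14, adjusted p = 0.611) was the smallest of the 10.

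The 3 genes of C1q, whose chains assemble into the molecule that recognises antibody complexes and dying cells, were lower in isolated mice by nearly the same amount. C1qa was at 12.40, 12.28, 12.00 and 12.40 in grouped and at 11.88, 12.02, 11.60 and 12.12 in isolated arrays. C1qb was at 11.88, 11.74, 11.60 and 11.89 against 11.35, 11.65, 11.11 and 11.57, and C1qc at 11.57, 11.35, 11.19 and 11.52 against 10.98, 11.21, 10.70 and 11.24. In each of the 3 genes grouped replicate 3 was the lowest grouped array and fell within the isolated range, so that the groups overlapped. The log2 differences were -0.37 (SE 0.13, adjusted p = 0.426) for C1qa, -0.36 (SE 0.12, adjusted p = 0.411) for C1qb and -0.38 (SE 0.13, adjusted p = 0.414) for C1qc.

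The 3 C1q genes are neighbours, in the order C1qb, C1qc and C1qa between Ephb2 and Epha8 in the RefSeq annotation of GRCm38.p6, and their probe sets moved in parallel from array to array. Over the 8 arrays of 15 weeks C1qb had an SD of 0.27 and C1qc one of 0.28 on the log2 scale, while the difference between them on the same array had an SD of 0.04. At 20 weeks the SDs were 0.64 and 0.66, and that of the difference was 0.08. C1qa followed less closely at 20 weeks, with an SD of 0.14 for its difference from either of the other two. These points share arrays and normalization, and are given as a description.

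Because C1qb and C1qc moved most closely together, their upstream sequences are shown, from RefSeq's GRCm38.p6, 5′ to 3′ on the minus strand. Each run goes from 250 to 26 bases before the transcription start and lies at chr4:136886226-136886450 for C1qb and chr4:136892940-136893164 for C1qc. Capitals mark ACTTCCT, the reverse complement of AGGAAGT, a form of the core letters bound by ETS factors such as PU.1, which is needed to make macrophages.
C1qb: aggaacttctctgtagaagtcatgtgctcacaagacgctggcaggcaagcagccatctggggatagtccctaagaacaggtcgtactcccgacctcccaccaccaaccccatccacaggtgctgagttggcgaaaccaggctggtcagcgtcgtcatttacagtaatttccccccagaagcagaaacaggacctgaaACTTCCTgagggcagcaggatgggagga
C1qc: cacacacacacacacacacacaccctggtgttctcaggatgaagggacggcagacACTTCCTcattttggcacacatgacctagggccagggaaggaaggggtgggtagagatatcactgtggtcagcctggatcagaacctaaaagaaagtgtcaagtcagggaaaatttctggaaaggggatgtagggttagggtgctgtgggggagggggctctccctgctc
The match began 53 bases before the start in C1qb and 195 bases before it in C1qc. AGGAAGT was searched on both strands in the 250 bases before the start, and 7.69% of 32851 promoter entries of all genes held it there. Of the 10 members, 7 had an entry in the promoter table used here, and 4 of those 7 held the letters (C1qb, C1qc, Fcgr1 and Lyz2). The longer GAGGAAGT, which contains AGGAAGT, was in 2.44% of all entries and, among the members, in C1qc. A match of letters is a description and does not show that a factor binds there.

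The lysosomal genes and lysozyme followed at 15 weeks. Cd68, a glycoprotein of macrophage lysosomes, was at 10.12, 10.01, 9.92 and 10.15 in grouped and at 9.67, 10.08, 9.43 and 10.04 in isolated arrays. Isolated replicates 2 and 4 lay within the grouped range, and the difference was -0.24 (SE 0.14, adjusted p = 0.565). Ctss, a cysteine protease that trims the invariant chain of MHC class II, was at 12.59, 12.13, 11.84 and 12.36 in grouped and at 11.84, 11.97, 11.68 and 12.06 in isolated arrays, a difference of -0.34 (SE 0.15, adjusted p = 0.499). Lyz2, a lysozyme that breaks bacterial cell walls, was at 13.73, 13.53, 13.13 and 13.57 in grouped and at 13.14, 13.10, 12.83 and 13.24 in isolated arrays. Its difference was -0.41 (SE 0.13, adjusted p = 0.393), and only grouped replicate 3 fell within the isolated values.

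Across the 10 members at 15 weeks 0 were called with limma, where 0.044% of all genes were. The groups did not overlap in 3 members, each lower, against 3.38% of all genes, and 8 members were lower at an unadjusted p under 0.05, against 5.82% of all genes. A negative difference was found in 10 of 10 members and in 54% of all genes, whose median difference was -0.01. All 10 lay between the 0.462nd and the 4.30th percentile of all differences. The mean of the 10 genes was 11.58, 11.40, 11.20 and 11.50 in grouped and 11.02, 11.23, 10.78 and 11.24 in isolated arrays. Isolated replicate 3 was the lowest of the 8 arrays for 10 of 10 members, and grouped replicate 3 the lowest of the grouped arrays for 10 of 10. Leaving out isolated replicate 3 moved the median difference from -0.36 to -0.27, and with array weights, which count arrays far from their group less, 2 members (Lyz2 and Tyrobp) were called lower, as were 1.75% of all genes.

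One measure of RNA quality moved with housing at 15 weeks. For the Gapdh controls, the 3′ probe set minus the 5′ one gave -0.06 ± 0.02 (SD, n = 4) in grouped and -0.01 ± 0.02 in isolated arrays (two-sided exact permutation p = 0.0571, where 0.0286 is the smallest the design allows). With that difference as a covariate the median member difference was -0.19, and that of Cd68 was 0.01. The same difference of the actin controls gave exact p = 0.257, and as a covariate a median of -0.25. The part of RNA quality in the result was not tested beyond these fits.

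**Figure D2:**
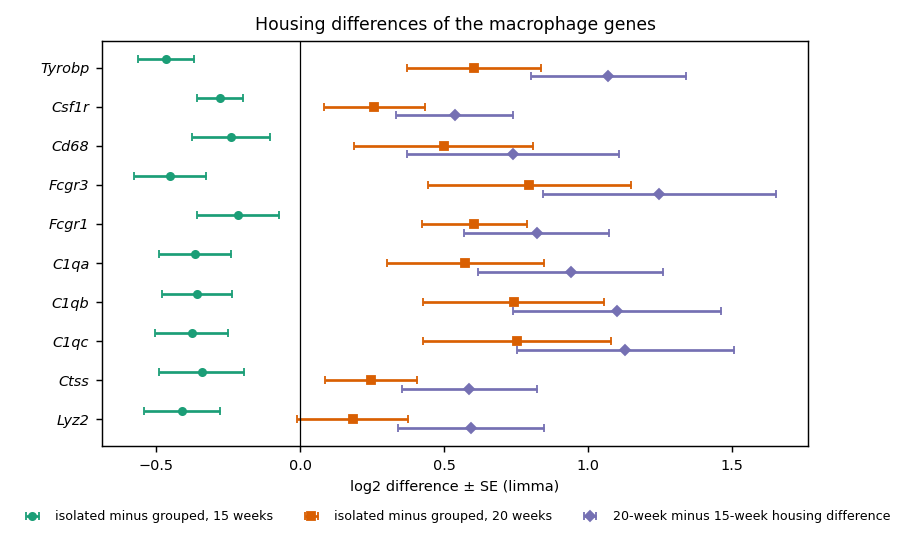
Log2 difference (x axis, point ± SE from limma) of each macrophage gene between isolated and grouped mice at 15 weeks (circles) and at 20 weeks (squares), and the second minus the first (diamonds). All 10 differences of 15 weeks are below 0, from -0.47 to -0.22, and all 10 of 20 weeks are above it, from 0.18 to 0.80.

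At 20 weeks the same genes were higher in isolated mice, by 1.13-fold to 1.74-fold, with a much wider spread. Fcgr3 had the largest difference among the 10. It was at 10.20, 9.71, 11.06 and 9.46 in grouped replicates 1 to 4 and at 10.20, 11.25, 11.30 and 10.85 in isolated replicates 1 to 4. Grouped replicate 3 lay within the isolated range, and isolated replicate 1 was level with grouped replicate 1. The group means were 10.11 ± 0.71 (SD, n = 4) and 10.90 ± 0.51, and the log2 difference was 0.80 (SE 0.35, adjusted p = 0.584).

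Tyrobp was at 11.07, 10.49, 11.47 and 10.43 in grouped and at 11.11, 11.64, 11.71 and 11.39 in isolated arrays. Grouped replicate 3 was again above 2 of the isolated arrays, and the difference was 0.60 (SE 0.23, adjusted p = 0.577). Fcgr1 was at 8.89, 8.47, 9.26 and 8.67 in grouped and at 9.10, 9.76, 9.48 and 9.37 in isolated arrays. It came nearest to separate groups, with grouped replicate 3 above isolated replicate 1 as the one overlap, and the difference was 0.60 (SE 0.18, adjusted p = 0.524). This probe set was kept over the second one of Fcgr1 only through its high values in this isolated group, so its size at 20 weeks is tied to that choice. Csf1r was at 12.51, 12.24, 13.07 and 12.27 in grouped and at 12.55, 12.87, 12.86 and 12.83 in isolated arrays. Its highest value of all was that of grouped replicate 3, and the difference was 0.26 (SE 0.18, adjusted p = 0.680).

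C1qa was at 12.06, 11.48, 12.76 and 11.51 in grouped and at 12.12, 12.65, 12.77 and 12.56 in isolated arrays. C1qb was at 11.26, 10.79, 12.33 and 10.86 against 11.65, 12.28, 12.28 and 12.00, and C1qc at 11.02, 10.36, 11.91 and 10.50 against 11.16, 11.96, 11.97 and 11.72. The pattern over arrays was that of the receptors, with grouped replicates 2 and 4 lowest. The log2 differences were 0.57 (SE 0.27, adjusted p = 0.597), 0.74 (SE 0.31, adjusted p = 0.578) and 0.75 (SE 0.33, adjusted p = 0.583).

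Cd68 was at 9.55, 9.40, 10.57 and 9.43 in grouped and at 9.47, 10.63, 10.45 and 10.40 in isolated arrays. Grouped replicate 3 stood apart from the other grouped arrays and isolated replicate 1 from the other isolated ones, and the difference was 0.50 (SE 0.31, adjusted p = 0.662). Ctss was at 12.60, 12.34, 12.90 and 12.26 in grouped and at 12.47, 12.74, 12.83 and 13.03 in isolated arrays, a difference of 0.24 (SE 0.16, adjusted p = 0.671). Lyz2 was at 13.55, 13.35, 13.79 and 13.16 in grouped and at 13.09, 13.73, 13.90 and 13.84 in isolated arrays. Its isolated replicate 1 was the lowest of all 8 arrays, and its difference of 0.18 (SE 0.19, adjusted p = 0.792) was the smallest of the 10.

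Of the 10 members 0 were called at 20 weeks, where 0.011% of all genes were called by limma, and 4 were higher at an unadjusted p under 0.05, against 3.97% of all genes. Fcgr1 is one of the 4 by the probe set kept only through its high values in this isolated group. Its other probe set had an unadjusted limma p of 0.484. In 0 members were the groups apart, against 2.21% of all genes for a higher isolated group. A positive difference was found in 10 of 10 members and in 46.7% of all genes. In the highest 5 percent of all differences lay 9 of 10, Fcgr1 among them by that same probe set. The mean of the 10 genes was 11.27, 10.86, 11.91 and 10.86 in grouped and 11.29, 11.95, 11.95 and 11.80 in isolated arrays. Grouped replicate 3 was the highest grouped array and isolated replicate 1 the lowest isolated array for 10 of 10 members. Without grouped replicate 3 the median difference was 0.79 in place of 0.59, and without isolated replicate 1 it was 0.72, with 0 members called in either case.

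The spread between arrays was larger at 20 weeks. In grouped mice the SD of a member over 4 arrays ran from 0.11 to 0.32 at 15 weeks and from 0.27 to 0.71 at 20 weeks, and it was larger at 20 weeks for 9 of 10 members, Ctss being the exception. In isolated mice it ran from 0.11 to 0.31 and from 0.15 to 0.52, and was larger at 20 weeks for 9 of 10, the exception being Fcgr1. The labels do not say whether a gland held a visible tumour.

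Whether the housing difference itself differed between ages was tested on all 16 arrays. The difference at 20 weeks minus that at 15 weeks was positive for 10 of 10 members, against 47.7% of all genes, and its median was 0.88. It was largest for Fcgr3 (1.25, SE 0.40, adjusted p = 0.237), C1qc (1.13, SE 0.38, adjusted p = 0.255), C1qb (1.10, SE 0.36, adjusted p = 0.246) and Tyrobp (1.07, SE 0.27, adjusted p = 0.181). C1qa (0.94, SE 0.32), Fcgr1 (0.82, SE 0.25), Cd68 (0.74, SE 0.37), Lyz2 (0.59, SE 0.25), Ctss (0.59, SE 0.24) and Csf1r (0.54, SE 0.20) had adjusted p between 0.225 and 0.413. Of the 10 members 0 were called, where 0.011% of all genes were, and 9 were higher at an unadjusted p under 0.05, against 7.24% of all genes. Without grouped replicate 3 of 20 weeks 6 members were called (Tyrobp, Csf1r, Fcgr3, C1qa, C1qb and C1qc), against 0.445% of all genes called higher. With array weights 8 were called, Fcgr1 among them, against 2.75% of all genes called higher.

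The genes Csf1r, C1qb and Fcgr1 were read by more than 1 probe set each, which allows each difference to be checked on separate oligonucleotides. The 3 probe sets of Csf1r gave differences of -0.28, -0.31 and -0.34 at 15 weeks and of 0.26, 0.38 and 0.36 at 20 weeks. Those of C1qb gave -0.36, -0.22 and -0.34 at 15 weeks and 0.74, 0.68 and 1.02 at 20 weeks. The probe sets of these 2 genes therefore had the same signs in the housing differences of both ages. The last 2 C1qb probe sets carry the suffix _x_at, by which the manufacturer marks probes that may also match other transcripts. Fcgr1 differed between its probe sets: the one used above gave -0.22 and 0.60, while the other gave -0.03 (SE 0.05) and 0.05 (SE 0.06). The choice rested on the highest mean level over 16 arrays, and the probe set used was the brighter one only in isolated mice of 20 weeks (9.43 against 8.93). In the other groups it was the dimmer one, at 8.73 against 8.79, 8.52 against 8.76 and 8.82 against 8.88.

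**Figure D3:**
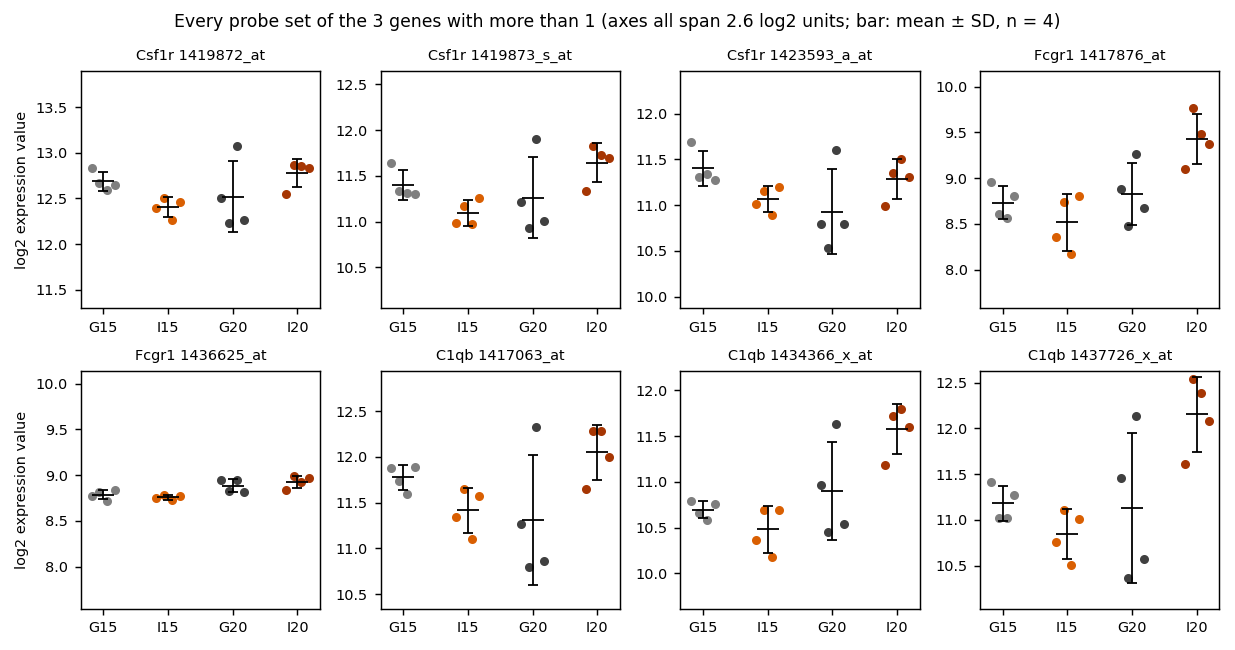
Log2 expression value of each probe set of Csf1r, Fcgr1 and C1qb on the 16 arrays, with all axes spanning the same number of log2 units, points from replicate 1 to 4 within each group and bars for the mean ± SD (n = 4). The 3 probe sets of Csf1r and the 3 of C1qb follow the same arrays up and down, and the other Fcgr1 probe set stays nearly level in the 4 groups.

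The change from 15 to 20 weeks was compared within each housing condition. These comparisons share their arrays with the housing comparisons and are set beside them only as values. The 2 ages had different distributions of values: once sorted, values of 2 arrays differed by 0.026 on average within an age and by 0.233 across ages. The median gene was 0.23 higher at 20 weeks in grouped and 0.24 higher in isolated mice, so that age and whatever set these distributions apart cannot be told apart. No label names a batch. Each change is also given net of that shift.

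In isolated mice the 10 genes were higher at 20 than at 15 weeks, with a median log2 difference of 0.65, or 0.41 net of all genes. Fcgr3 rose by 1.05 (SE 0.23, adjusted p = 0.00294), Fcgr1 by 0.91 (SE 0.17, adjusted p = 0.0011), Ctss by 0.88 (SE 0.13, adjusted p = 0.000231) and Tyrobp by 0.69 (SE 0.13, adjusted p = 0.00126). Net of the shift these were 0.81, 0.68, 0.65 and 0.46. The second Fcgr1 probe set differed by 0.17 (SE 0.05), less than the shift. C1qc (0.67), C1qb (0.63), C1qa (0.62), Lyz2 (0.56) and Csf1r (0.37, or 0.13 net) also passed, and Cd68 did not (0.43, SE 0.24, adjusted p = 0.144). The other Csf1r probe sets differed by 0.55 and by 0.22 (SE 0.11, adjusted p = 0.104), the latter less than the shift. Those of C1qb differed by 1.09 and 1.31. Thus 9 of 10 members were called higher, but so were 57.3% of all genes in that comparison, and 5 members had groups that did not overlap, against 52.7% of all genes. After quantile normalization of the isolated arrays of both ages together 7 members were called higher, against 24.7% of all genes. Cyclic loess of the same arrays gave 3 (Ctss, Fcgr1 and Fcgr3), against 21.9%. Fcgr1 is in each of these counts by the probe set kept only through its high values in isolated mice of 20 weeks.

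In grouped mice the same age step gave a median of -0.25, or -0.48 net of all genes, and 0 of 10 members were called, where 62.5% of all genes were. C1qb (-0.47, SE 0.29, adjusted p = 0.178), C1qc (-0.46, SE 0.29, adjusted p = 0.184) and Tyrobp (-0.38, SE 0.21, adjusted p = 0.142) had the largest negative differences, and Ctss (0.30, SE 0.18, adjusted p = 0.173) and Fcgr1 (0.09, SE 0.16, adjusted p = 0.628) were positive. A negative difference was found in 8 of 10 members and in 18.9% of all genes. The 3′ minus 5′ value of the Gapdh controls also differed here, at -0.06 ± 0.02 (SD, n = 4) at 15 and -0.01 ± 0.03 at 20 weeks (two-sided exact permutation p = 0.0857), and with it as a covariate the median was -0.033, with 6 of 10 negative. Leaving out single arrays moved the median from -0.55 (without grouped replicate 3 of 20 weeks) to -0.12 (without grouped replicate 2 of 20 weeks). The count rested on 1 array: without grouped replicate 3 of 20 weeks 7 members were called lower, against 7.44% of all genes. The C1qb probe sets disagreed here, with differences of -0.47, 0.20 and -0.05.

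Ordered by group mean, isolated mice of 20 weeks were highest for 10 of 10 members. Grouped mice of 15 weeks came next for 8 of 10, and grouped mice of 20 weeks for Fcgr1 and Ctss. Isolated mice of 15 weeks were lowest for 7, and grouped mice of 20 weeks for Cd68, C1qb and C1qc. This order is that of the probe set kept for each gene, and others differed. A second Csf1r probe set was highest in grouped mice of 15 weeks (11.40, against 11.29 in isolated mice of 20 weeks), while the third kept the order. The other C1qb probe sets were lowest in isolated mice of 15 weeks (10.48 and 10.84). The first of them also had grouped mice of 20 weeks (10.90) above those of 15 weeks (10.70). The order spans both ages and so holds the shift between them, and neighbours that differ in both age and housing were not tested.

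The members followed one another over the 16 arrays to different degrees. Each gene was centred on its mean over the 8 arrays of each age and set against the mean of the other 9 members. The root mean square difference was smallest for C1qa (0.070 log2 units) and Tyrobp (0.103) and largest for Ctss (0.201) and Lyz2 (0.207), so that the protease and the lysozyme followed the others least closely. Against the mean of all 10, the closest genes outside the list were P2ry6 (0.052), a receptor for the nucleotide UDP, and Cyth4 (0.084). Plek (0.090), a protein kinase C substrate of blood cells, the transcription factor Maf (0.098), Pld4 (0.099), Fcer1g (0.101), the Fc receptor gamma chain, Evi2a (0.111), Ms4a6c (0.114), Alox5ap (0.115), which leukotriene synthesis requires, and the protease Ctsc (0.117) came next. The median of all genes was 0.375. P2ry6 differed with housing by -0.34 at 15 and 0.56 at 20 weeks, a likeness to the members that its choice on the same arrays fixes.

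Further macrophage genes gave a smaller difference in the same directions. Of 14 measured genes of a second macrophage list, 0 were called at either age, 13 were negative at 15 weeks (median -0.27) and 14 positive at 20 weeks (median 0.33). Aif1, an actin-binding protein of macrophages, was lower in every isolated array at 15 weeks (-0.29, SE 0.09, adjusted p = 0.344) and higher in every isolated array at 20 weeks (0.52, SE 0.11, adjusted p = 0.422). The integrin chain Itgb2 (-0.36, SE 0.13) and Ms4a7 (-0.32, SE 0.11) had the next smallest p at 15 weeks, and Cd53 (0.72, SE 0.25) and the leukocyte phosphatase Ptprc (0.62, SE 0.28) at 20 weeks. Laptm5, singled out with its values known, was the one gene of the list above 0 at 15 weeks (0.20).

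Among 12 measured genes of the CSF1 axis and of macrophage transcription factors 0 were called at either age. The median was -0.18 at 15 weeks, with 10 negative, and 0.07 at 20 weeks, with 9 positive. At 15 weeks Csf2ra, a receptor chain for GM-CSF, was at -0.38 (SE 0.07, adjusted p = 0.147), Il34, the second ligand of the CSF1 receptor, at -0.29 (SE 0.09, adjusted p = 0.387) and Maf at -0.37 (SE 0.13, adjusted p = 0.427). At 20 weeks Irf8 was at 0.28 (SE 0.13) and Tfec at 0.52 (SE 0.25), while Cebpa, a factor that adipocytes also express, was at -0.52 (SE 0.21). The ligand Csf1 itself, also singled out with its values known, was at -0.09 (SE 0.07) and 0.10 (SE 0.09).

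The partners of Tyrobp and the Fc receptors had 0 of 13 measured genes called at either age, with medians of -0.14 and 0.16. Fcer1g, the gamma chain that Fcgr1 and Fcgr3 need at the cell surface, was at -0.20 (SE 0.09) and 0.52 (SE 0.21), and the DAP12-coupled receptor Clec5a at -0.24 (SE 0.12) and 0.34 (SE 0.08), with every isolated array above every grouped one at 20 weeks. Inpp5d, a phosphatase that restrains such signals, was at -0.17 (SE 0.09) at 15 weeks, and Cd300lb at 0.31 (SE 0.12) at 20 weeks. Fcgr4, the neighbour of Fcgr3, was at 0.02 (SE 0.07) and 0.27 (SE 0.08). Of 10 measured genes of early complement and its regulators 0 were called, with medians of -0.10 and 0.19. Serping1, the inhibitor of C1, was at -0.41 (SE 0.08, adjusted p = 0.137), properdin, Cfp, at -0.38 (SE 0.09) and the C1 protease gene C1ra at -0.33 (SE 0.09) at 15 weeks, each lower in every isolated array. At 20 weeks the receptors C3ar1 and C5ar1 were at 0.34 (SE 0.17) and 0.27 (SE 0.17) and Vsig4 at 0.48 (SE 0.25).

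Of 14 measured lysosome genes 0 were called, 14 were negative at 15 weeks (median -0.18) and 12 positive at 20 weeks (median 0.17). Cst3, an inhibitor of cysteine proteases, was at -0.21 (SE 0.06), Ctsk at -0.28 (SE 0.08) and Ctsz at -0.20 (SE 0.07) at 15 weeks, and in all 3 the isolated arrays lay below the grouped ones. At 20 weeks Lgmn was at 0.61 (SE 0.24), Ctsc at 0.45 (SE 0.16) and Ctsh at 0.29 (SE 0.18). Lyz1, a close copy of Lyz2 beside it in the genome, was chosen for comparison with its values known and was at -0.38 (SE 0.12) and 0.09 (SE 0.17), so that the 2 lysozyme probe sets gave like values. Whether each reads its own gene alone was not tested.

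**Figure D4:**
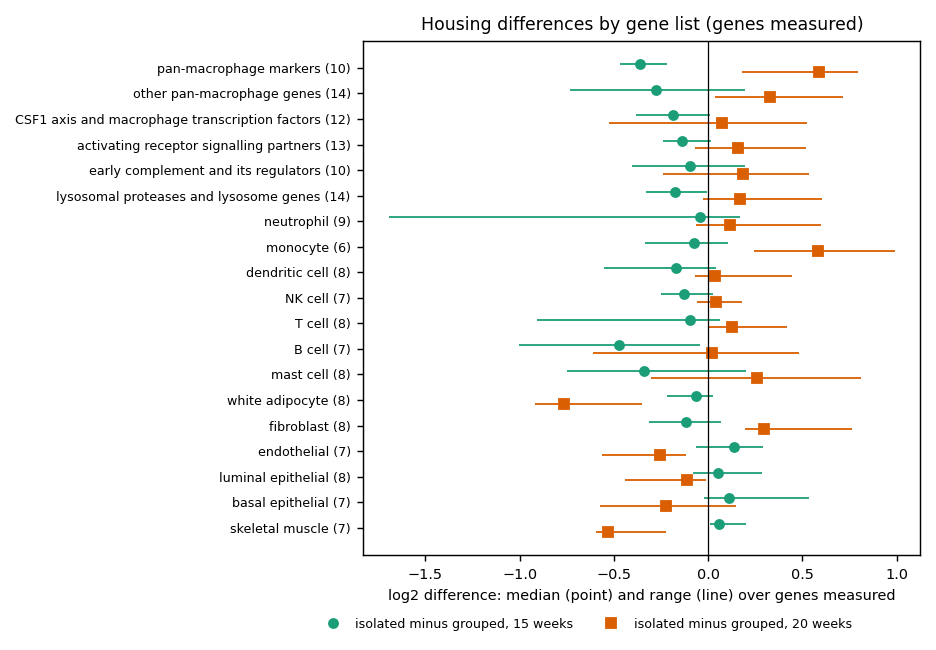
Median (point) and range (line) of the log2 housing difference over the measured genes of each list, at 15 weeks (circles) and 20 weeks (squares), with the number of genes in brackets. The 10 macrophage genes have medians of -0.36 and 0.59, and the white adipocyte list stands at -0.06 and -0.77.

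Markers of some other cell types moved with the macrophage genes and those of others did not, and their part in the result was not tested. The array files give a level to every probe set, so no marker is at 0. At 15 weeks the mast cell list held the one call among these lists, 3 of 8 genes lower (Mcpt4, Cpa3 and Tpsb2), with a median of -0.34. The other way, 3 of its 8 genes were positive, among them Hdc, which makes histamine and was singled out with its values known (0.20, SE 0.09, adjusted p = 0.502, higher in every isolated array). The mean level of the mast cell list was 9.48 to 9.61 in grouped arrays, above the 9.18 to 9.33 of isolated ones. The B cell list was at a median of -0.47 (7 of 7 negative), the T cell list at -0.09, the dendritic cell list at -0.17, the fibroblast list at -0.12, the NK cell list at -0.13, the monocyte list at -0.07 and the neutrophil list at -0.04. Endothelial (0.13), basal epithelial (0.11), luminal epithelial (0.05) and skeletal muscle (0.06) lists were above 0.

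Grouped replicate 1 of 15 weeks stood apart in the lymphoid and neutrophil genes. Its mean level of the B cell list was 9.02, against 7.60 to 7.67 in the other grouped arrays and 7.51 to 7.57 in isolated arrays. Its T cell list was at 8.91, against 8.18 to 8.28 and 8.13 to 8.22, and its neutrophil list at 9.27, against 8.38 to 8.62 and 8.34 to 8.37. This array was also the highest of 8 for 6 of the 10 macrophage genes. Without it the median member difference was -0.32, and 10 of 10 remained negative.

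At 20 weeks the monocyte list was at a median of 0.58 (6 of 6 positive), close to the 10 members, with Vcan at 0.99 (SE 0.26, adjusted p = 0.465) as its smallest p. Its mean level spanned 10.16 to 11.28 among grouped arrays and 10.73 to 11.50 among isolated ones, and grouped replicate 3 was the highest grouped array there too. The fibroblast list was at 0.30 (8 of 8 positive; level 11.36 to 12.43 against 11.69 to 12.45) and the mast cell list at 0.26 (8.63 to 9.80 against 8.95 to 9.58). The white adipocyte list was at -0.77 (8 of 8 negative), with grouped arrays at levels of 11.61 to 11.96 and isolated ones at 10.48 to 11.76, skeletal muscle at -0.53, endothelium at -0.25, basal epithelium at -0.22 and luminal epithelium at -0.11. The other immune lists had smaller medians: T cell 0.13, neutrophil 0.12, NK cell 0.04, dendritic cell 0.03 and B cell 0.02. No gene of these lists was called at 20 weeks.

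The adipocyte and macrophage levels ran opposite on some arrays of 20 weeks and not on others. Isolated replicates 2 and 3 had the highest macrophage means, 11.95 each, with adipocyte means of 11.02 and 10.85, below all grouped arrays. Grouped replicate 3 had the macrophage level of the isolated arrays, at 11.91, with a white adipocyte list mean of 11.75, within the range of the other grouped arrays. Isolated replicate 4 had a macrophage mean of 11.80 with an adipocyte mean of 11.76, and isolated replicate 1 the lowest adipocyte mean, 10.48, with a macrophage mean of 11.29, below those of the other isolated arrays.

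**Figure D5:**
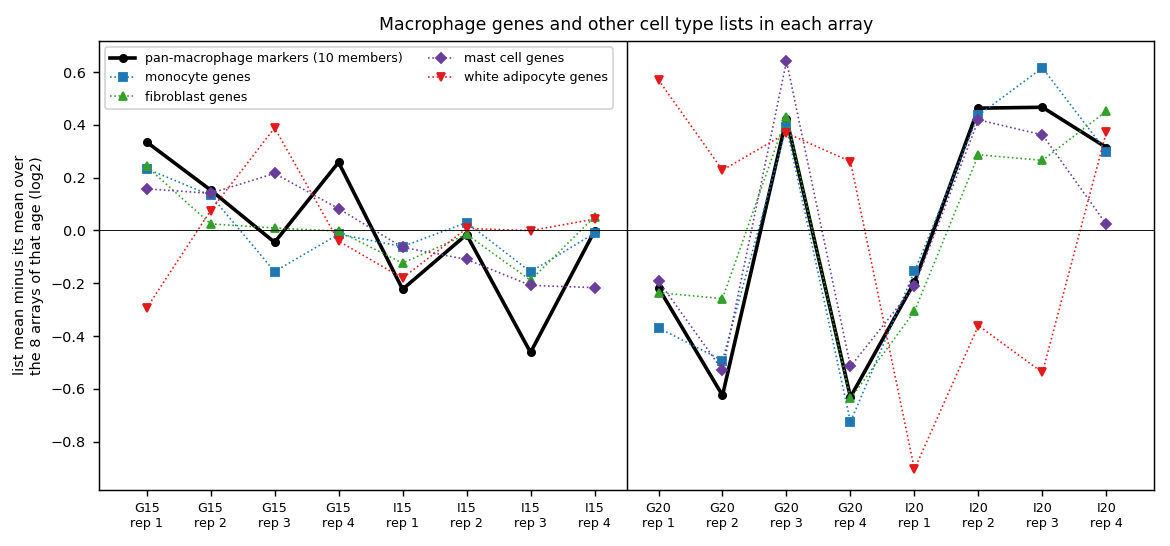
Mean level of the 10 macrophage genes and of 4 other lists on each array, as a log2 difference from the list's mean over the 8 arrays of that age. At 20 weeks the monocyte, fibroblast and mast cell lists follow the macrophage line up in grouped replicate 3 and down in isolated replicate 1. The white adipocyte list is lowest in isolated replicate 1 too, but is low in isolated replicates 2 and 3, where the macrophage line is high.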

How the data were processed

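Total RNA of 16 mammary gland samples was hybridised to Affymetrix Mouse Genome arrays, 1 array per sample. The authors deposited log2 expression values. The submitters' processing notes name RMA and the affy package as the tools, without versions. RMA corrects background, forces arrays onto a common distribution and summarises each probe set. Arrays carry no read depth, so their number limits the precision. Probe sets were named from the platform annotation: 34945 had 1 gene symbol, 932 several and 9211 were not listed there. Among a gene's probe sets that of highest mean level over 16 arrays was kept (18193 genes). Comparisons were fitted with limma 3.58.1 in R 4.3.3 (lmFit, eBayes with intensity trend) on the 8 arrays concerned, or on all 16 for the difference between ages, with Benjamini-Hochberg adjustment and a threshold of 0.05. The fits were tested on simulated data.

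All 10 members are named whatever their p. From each other list up to 3 genes with the smallest p per housing comparison are named, and the 10 genes nearest the member mean. The members and lists were chosen with earlier results of these data known. Alternatives covered normalization, filtering, probe set choice, the variance model, array weights, the replicate number as a block, RNA quality covariates and leaving out each array.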

Additional observations from a re-analysis of the deposited data

Results flagged for a closer look

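The 10 macrophage genes were screened in each of the 4 groups, 40 sets of 4 arrays in all, for an array whose gap to the nearest other array took up more of the group's range than Dixon's 95% critical value for 4 samples. Chance alone would mark about 1 in 20 such sets, and 2 were marked.

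Csf1r was at 12.55 in isolated replicate 1 of 20 weeks, against 12.83 to 12.87 in the other isolated arrays, a gap of 0.903 of the range. Cd68 was at 10.57 in grouped replicate 3 of 20 weeks, against 9.40 to 9.55 in the other grouped arrays, a gap of 0.871 of the range. The same array was the lowest isolated, or the highest grouped, for 10 of 10 macrophage genes.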

How the results depend on the processing

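The sign of the housing difference held for every member at 20 weeks and for the difference between ages under all alternatives run, and at 15 weeks except that Cd68 differed by 0.0084 with the Gapdh 3′ minus 5′ covariate. Counts of members called moved more. At 15 weeks 2 members were called with array weights in place of 0, against 1.75% of all genes called lower. For age in grouped mice, 1 was called with quantile normalization, 1 with cyclic loess and 3 with the actin 3′ minus 5′ covariate, in place of 0. Of all genes 38.6%, 38.9% and 57.6% were called there in either direction. Leaving out single arrays gave 0 to 7 members, the 7 against 7.44% of all genes called lower. For age in isolated mice cyclic loess gave 3 in place of 9, against 21.9% of all genes called higher, and a median of 0.32. Fcgr1 is in both counts by the probe set kept only through its high values in isolated mice of 20 weeks. Leaving out single arrays gave 9 to 10, against 59.9% to 66.8% of all genes called in either direction. For the housing difference between 20 and 15 weeks array weights gave 8 and the actin covariate 1 in place of 0. That 1 was Fcgr1, also among the 8, by the probe set kept only through its high values in isolated mice of 20 weeks. Of all genes 4.28% and 0.385% were called in either direction with these settings. With the Gapdh 3′ minus 5′ covariate 0 members were called, and the median member difference was 0.64 in place of 0.88. Leaving out single arrays gave 0 to 6, the 6 against 0.445% of all genes called higher. Leaving out single arrays moved the median member difference from -0.45 to -0.27 at 15 weeks and from 0.44 to 0.79 at 20 weeks. The counts of all genes called ranged from 0 to 494 (array weights) at 15 weeks, from 0 to 136 (without isolated replicate 4) at 20 weeks and from 0 to 778 (array weights) for the difference between ages, against 8, 2 and 2. The causes of these moves were not tested.

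For age in grouped mice several small differences turned sign. Fcgr1 was at -0.14 with quantile normalization, -0.15 with cyclic loess, -0.049 with the actin covariate and, leaving out single arrays, between -0.056 and 0.21. Fcgr3 was at 0.25 with the Gapdh covariate and between -0.52 and 0.017 leaving out single arrays. Lyz2 was at 0.12 with the Gapdh covariate and between -0.15 and 0.072 leaving out single arrays. Of 1116 values of single members under an alternative, 1065 kept their sign and side of the threshold.

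The replicate numbers were not taken to pair the samples: deviations of same-numbered arrays from their group means correlated at -0.10 to 0.36 at 15 weeks and at -0.16 to 0.49 at 20 weeks. With replicate numbers as a block, 0, 0, 0, 9 and 0 members were called in the 5 comparisons, the same counts as without it, and 17, 3, 10569, 12350 and 8 of all genes.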
